A study of Mus musculus with 8 samples.

Results

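The 10 genes described here, Ltf, Camp, Ngp, Lcn2, Mmp8, Mmp9, Retnlg, S100a8, S100a9 and Ly6g, encode granule, cytosolic and surface proteins by which neutrophils are recognized. They were taken by gene symbol from a table of 54532 genes, and each symbol matched 1 row. The genes were chosen by their levels in these same libraries, because 1 anti-BAFF Ab-treated mouse, mouse 5, was known to stand apart in several of them, so their levels in the 8 mice are a description and not a test. RNA was prepared from the stromal vascular fraction (SVF) of gonadal WAT, the cells that sediment after collagenase digestion of a fat pad, with red cells lysed. All mice were male C57BL/6J animals that were kept on an HFD (60% fat by calories) for 12 weeks and were then moved to NCD (16% fat by calories). During the NCD period they were injected with 2 mg/kg of the anti-BAFF clone Sandy-2 or of a mouse IgG1 isotype control every 2 weeks for 6 weeks, and tissue was taken at week 18. The control Ab group was mice 1, 2, 6 and 9 and the anti-BAFF Ab group mice 5, 7, 8 and 10, with 1 library from each mouse. Their age at the start is not settled by the sources used here. BAFF is a survival factor for B cells. No mouse kept on HFD, kept lean or given no antibody was part of these libraries.

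Neutrophils build their granules in sequence while they mature in the bone marrow. Azurophil granules, with myeloperoxidase and elastase, are filled first, specific granules with lactoferrin and cathelicidin come next, and gelatinase granules come later. The granule transcripts fall again as the cells mature, so neutrophils in blood and tissue carry the proteins of genes they no longer transcribe much. S100a8, S100a9 and receptor genes such as Cxcr2 and Csf3r stay high in mature cells. The genes were therefore ordered as specific granule genes (Ltf, Camp, Ngp, Lcn2), later genes (Mmp8, Mmp9, Retnlg) and cytosolic or surface genes of mature cells (S100a8, S100a9, Ly6g). Mmp8 protein is also counted with the specific granules, so its place in this order is a convention.

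The libraries held between 13562340 and 18548024 counts, and mouse 5, with 14555098, was within that range. Levels are given as CPM, the counts divided by the TMM-scaled library size on the usual CPM scale. A count of 3, the largest expected count that an observed 0 in one library is taken to allow, is worth 0.165 to 0.219 CPM. Floors and intervals cover counting error only, since reads were not collapsed by molecular identifiers. Control mouse 1 stood apart from its group: chi-square per degree of freedom between 2 libraries was 54.3 to 70.2 for its pairs and 7.32 to 23.0 among the other 3 control mice. In bulk RNA of this kind, fewer cells of a type and less RNA per cell cannot be told apart. Of the 10 genes, 6 had enough counts to enter the fit across all genes, while Camp, Ngp, Mmp8 and Ly6g did not.

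The promoters of 4 genes are shown because these genes sit at the ends of the pattern below: S100a8 and S100a9 were high in mouse 5, while Ngp had no count there and Camp had 2. Each line holds the 250 bases before the RefSeq transcription start on build GRCm38.p6, read along the gene, with capitals marking matches to a C/EBP motif (TTNNGNAA, or TTNCNNAA on the other strand) or a PU.1 motif (GAGGAAG, or CTTCCTC on the other strand). C/EBP factors and PU.1 direct the granulocyte lineage. The windows are chr3:90668821-90669070 (+) for S100a8, chr3:90695722-90695971 (-) for S100a9, chr9:110419558-110419807 (+) for Ngp and chr9:109849457-109849706 (-) for Camp.
S100a8 promoter: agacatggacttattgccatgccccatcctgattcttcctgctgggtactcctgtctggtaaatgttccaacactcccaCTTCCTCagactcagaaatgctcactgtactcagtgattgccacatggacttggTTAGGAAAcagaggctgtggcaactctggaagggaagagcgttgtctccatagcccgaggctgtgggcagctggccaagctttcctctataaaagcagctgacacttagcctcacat
S100a9 promoter: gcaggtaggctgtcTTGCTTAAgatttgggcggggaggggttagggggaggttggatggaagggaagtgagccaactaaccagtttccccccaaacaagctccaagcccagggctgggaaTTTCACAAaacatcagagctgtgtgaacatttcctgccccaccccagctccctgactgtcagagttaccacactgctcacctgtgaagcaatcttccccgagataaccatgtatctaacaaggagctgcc
Ngp promoter: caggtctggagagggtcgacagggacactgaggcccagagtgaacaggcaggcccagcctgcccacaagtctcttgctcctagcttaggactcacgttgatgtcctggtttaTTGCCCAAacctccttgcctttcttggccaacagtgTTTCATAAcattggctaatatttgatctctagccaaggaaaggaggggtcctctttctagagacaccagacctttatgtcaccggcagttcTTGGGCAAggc
Camp promoter: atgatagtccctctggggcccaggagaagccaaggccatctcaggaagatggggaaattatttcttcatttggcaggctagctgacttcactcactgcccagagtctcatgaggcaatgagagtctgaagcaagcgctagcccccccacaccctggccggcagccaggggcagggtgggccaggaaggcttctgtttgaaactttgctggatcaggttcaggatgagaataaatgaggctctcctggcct

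S100a8 held 1 C/EBP match, 117 to 110 bases before the start, and 1 PU.1 match. S100a9 held 2 C/EBP matches, Ngp held 3, and Camp held neither motif in this window. No C/EBP match overlapped a PU.1 match in these windows. Across 32851 RefSeq promoters of the same length, 36.8% held the C/EBP motif and 10.6% held the PU.1 motif, so these short matches are common. A match describes letters and not a bound site. RefSeq gave a start for 9 of the 10 genes.

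**Figure D1:**
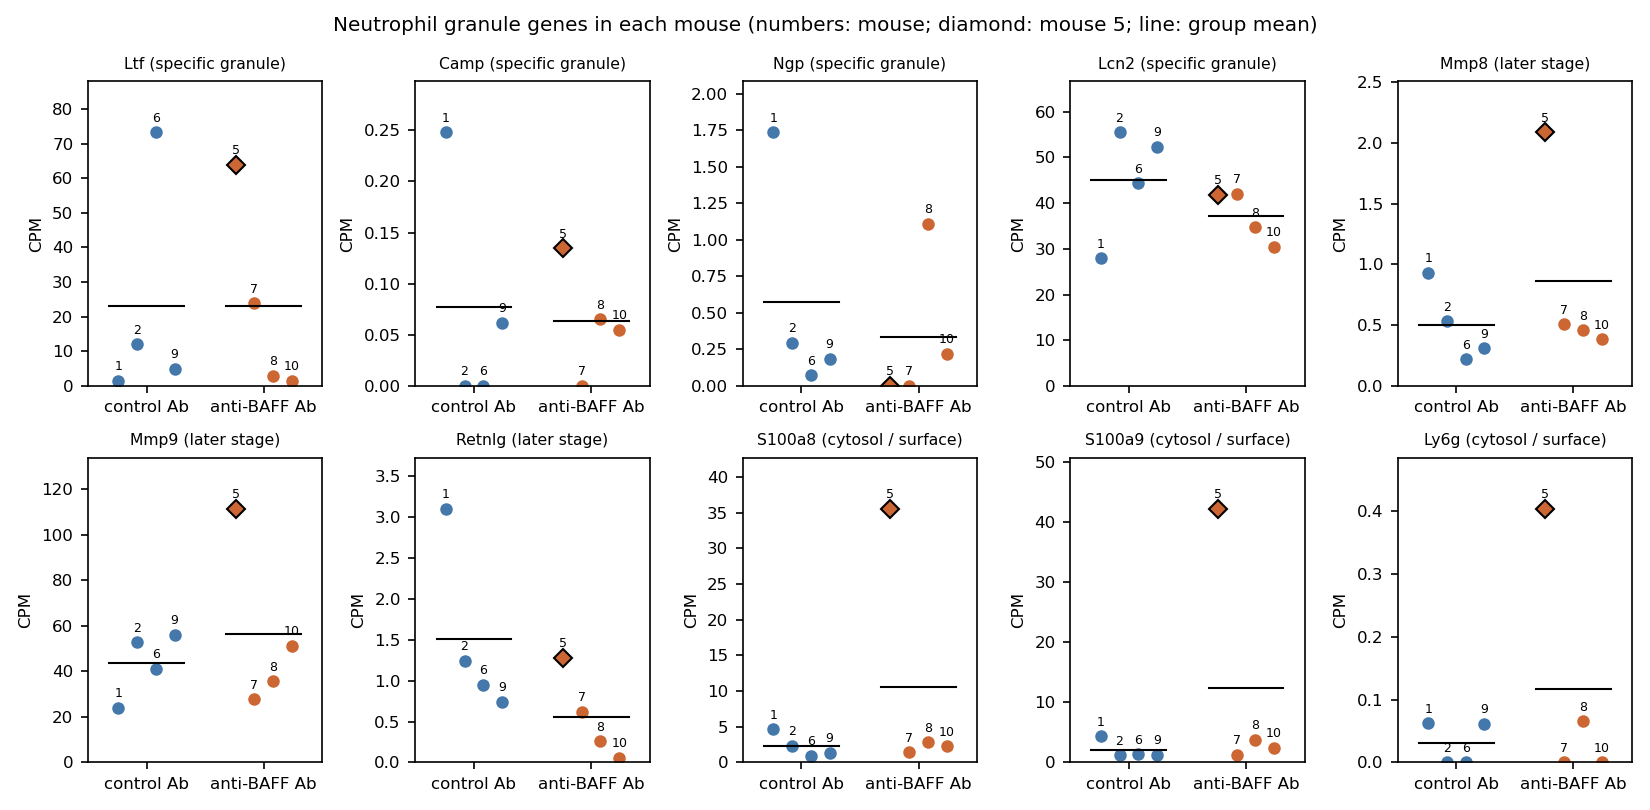
Level of each gene (CPM, linear axis from 0) in each of the 8 mice, numbered, with control Ab-treated mice in blue, anti-BAFF Ab-treated mice in orange, mouse 5 as a diamond and a line at each group mean. Mouse 5 is highest for Mmp8, Mmp9, S100a8, S100a9 and Ly6g, and control mouse 1 is highest for Camp, Ngp and Retnlg.

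Mouse 5 was the highest of the 8 mice in 5 of the 10 genes. It led in none of the 4 specific granule genes, in Mmp8 and Mmp9 of the 3 later genes, and in all 3 cytosolic and surface genes. Among the 15963 genes in the fit, mouse 5 was highest in 9.3%, against 3 of the 6 genes of this list that were in it. Mouse 5 was at least 2-fold above every other mouse in 2 of those 6, S100a9 and S100a8, and in 0.194% of all genes in the fit. Of the 4 genes with too few counts for the fit, Mmp8 and Ly6g were also past 2-fold, Ly6g on 6 counts. Mmp8, at 2.24-fold, lay just inside that limit and Mmp9, at 1.98-fold, just outside it, and Mmp9 passed it at 2.03-fold when libraries were scaled without TMM. These shares restate what drew attention to the genes and support nothing further. Control mouse 1 was the highest of the 8 in Retnlg, 1 of the 6 genes in the fit, against 26.7% of all genes in it, and in Ngp and Camp, which were not in the fit.

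Among the specific granule genes, Ltf encodes lactoferrin, an iron-binding protein that is also secreted by glandular epithelia. Its gene spans chr9:111019271-111042767 (build mm10). Ltf was at 1.49, 12.1, 73.3 and 5.02 CPM in control mice 1, 2, 6 and 9, and at 64.0, 23.9, 3.002 and 1.54 CPM in anti-BAFF mice 5, 7, 8 and 10. High and low mice were present in both groups, and control mouse 6, not mouse 5, was highest. The ratio of mouse 5 to mouse 6 was 0.872 (95% counting interval 0.798 to 0.954).

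Gonadal WAT of males lies against the epididymis, and genes of that tissue were high in the mice that were high in Ltf. The summed level of 8 epididymis markers was 15.9, 1876, 814 and 122 CPM in control mice 1, 2, 6 and 9, and 757, 1953, 146 and 69.5 CPM in anti-BAFF mice 5, 7, 8 and 10. The 4 mice with the highest Ltf, mice 6, 5, 7 and 2, were the 4 with the highest marker sum, and the order within those 4 differed. In the other 4 mice Ltf was between 1.49 and 5.02 CPM. The marker Lcn5 was at 0 counts in mice 5, 6 and 9 while it reached 476 CPM in mouse 2, and Lcn9 was at 0 in every mouse. The part of epididymal tissue in the Ltf levels was not tested.

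Lcn2 encodes lipocalin 2, a protein that binds bacterial siderophores and is also made by adipocytes, macrophages and epithelia. It was at 28.0, 55.5, 44.3 and 52.3 CPM in control mice 1, 2, 6 and 9, and at 41.8, 42.1, 34.8 and 30.4 CPM in mice 5, 7, 8 and 10. Of the 10 genes, Lcn2 had the smallest ratio of the highest to the lowest mouse, and mouse 5 ranked 5 of 8. Its gene lies at chr2:32384633-32388252.

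**Figure D2:**
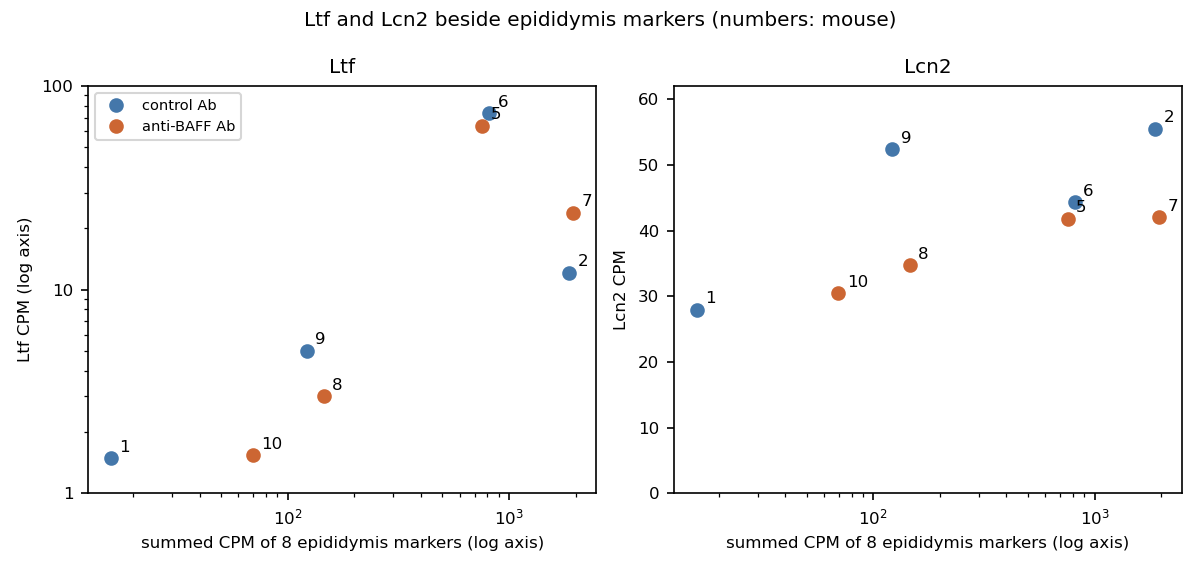
Ltf (left, log axis) and Lcn2 (right, linear axis from 0) in CPM against the summed CPM of 8 epididymis markers (log axis) in each of the 8 numbered mice, coloured by antibody. Mice 2, 5, 6 and 7 hold the highest values of Ltf and of the markers, from 12.1 to 73.3 CPM for Ltf, while Lcn2 runs from 28.0 to 55.5 CPM.

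Ngp, neutrophilic granule protein, is transcribed in precursors that fill specific granules. It had 28, 5, 1 and 3 counts in control mice 1, 2, 6 and 9, and 0, 0, 17 and 4 counts in anti-BAFF mice 5, 7, 8 and 10. On the CPM scale these were 1.74, 0.296, 0.073 and 0.186 in the control mice and 1.11 and 0.221 in mice 8 and 10. Mouse 5, with the most S100a8 and S100a9, had no Ngp count. Against the 28 counts of control mouse 1, the counting interval allowed mouse 5 at most 0.153 times the Ngp level of that mouse. For each 1000 counts of S100a8 and S100a9 together there were 193, 83.3, 31.2 and 69.8 Ngp counts in control mice 1, 2, 6 and 9, and 0, 0, 167 and 47.1 in mice 5, 7, 8 and 10. Mice 7 and 5 shared an Ngp count of 0, but mouse 7 had 25 and 23 counts of S100a8 and S100a9 where mouse 5 had 528 and 628. Ngp lies at chr9:110419747-110423012.

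Camp, the precursor of the antimicrobial peptide cathelicidin, lies near Ngp on the same chromosome (chr9:109847379-109849617) and was close to undetected. Its 9 counts in all were 4, 0, 0 and 1 in control mice 1, 2, 6 and 9, and 2, 0, 1 and 1 in mice 5, 7, 8 and 10. The ratio of mouse 5 to control mouse 1 was 0.543 with a counting interval of 0.0491 to 3.79, so no difference was detectable at this depth.

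Among the later genes, Mmp9 encodes gelatinase B, the marker protein of gelatinase granules, which macrophages also make. It was at 24.1, 52.8, 41.1 and 56.2 CPM in control mice 1, 2, 6 and 9, and at 111, 27.7, 35.6 and 51.3 CPM in mice 5, 7, 8 and 10. Mouse 5 exceeded the next mouse, control mouse 9, by 1.98-fold (interval 1.83 to 2.15). Without mouse 5 the anti-BAFF mice lay inside the range of the control mice. The Mmp9 gene spans chr2:164940780-164955850.

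Mmp8, neutrophil collagenase (chr9:7558456-7568485), was at 0.930, 0.532, 0.219 and 0.310 CPM in control mice 1, 2, 6 and 9, and at 2.09, 0.507, 0.457 and 0.386 CPM in mice 5, 7, 8 and 10. These levels rest on 3 to 31 counts per mouse. Mouse 5 was 2.24-fold above control mouse 1, with a counting interval of 1.17 to 4.47.

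Retnlg encodes resistin-like gamma, a secreted protein of the resistin family found in neutrophils and bone marrow (chr16:48872621-48874496). It was at 3.10, 1.24, 0.951 and 0.743 CPM in control mice 1, 2, 6 and 9, and at 1.28, 0.619, 0.261 and 0.055 CPM in mice 5, 7, 8 and 10. Mouse 5 was not highest here: its 19 counts gave 0.412 times the level of control mouse 1 (interval 0.230 to 0.712). The other 3 anti-BAFF mice were the 3 lowest of the 8. Their levels rest on 11, 4 and 1 counts in mice 7, 8 and 10, and mouse 10 is below the 3-count floor.

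S100a8 and S100a9 encode the subunits of calprotectin, an abundant protein of the neutrophil cytosol, and lie close together on chromosome 3 (chr3:90668978-90670035 and chr3:90692632-90695721). S100a8 was at 4.65, 2.36, 0.951 and 1.36 CPM in control mice 1, 2, 6 and 9, and at 35.5, 1.41, 2.87 and 2.26 CPM in mice 5, 7, 8 and 10. S100a9 was at 4.34, 1.18, 1.39 and 1.30 CPM in the control mice and at 42.3, 1.30, 3.78 and 2.43 CPM in the anti-BAFF mice, in the same order. Mouse 5 was far above all others for both, and the next highest for both was control mouse 1. Against the median of the other 7 mice, mouse 5 was 15.7-fold higher for S100a8 and 30.4-fold higher for S100a9. The ratio of mouse 5 to mouse 1 was 9.74 for S100a9 (interval 7.60 to 12.6) and 7.64 for S100a8 (interval 5.99 to 9.87). By the log2 gap between mouse 5 and the next mouse, S100a9 ranked 2 and S100a8 ranked 4 among 15963 genes. Mmp9 ranked 31, Ltf 5633, Lcn2 10088 and Retnlg 14936.

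The S100 pair kept a similar proportion in mouse 5 as elsewhere. Per kilobase of gene length, S100a9 over S100a8 was 1.58 in mouse 5, between the 0.665 of control mouse 2 and the 1.94 of control mouse 6. Ly6g encodes the surface protein bound by the antibody clone commonly used to gate mouse neutrophils (chr15:75155240-75159126). It had only 9 counts, of which 6 were in mouse 5 and 1 each in mice 1, 9 and 8. The ratio of mouse 5 to mouse 8 was 6.19 with a counting interval of 0.751 to 284.7, which includes no difference. Ly6g belongs to a family of similar genes in 1 cluster, and reads shared with a close relative could have been split or lost in the counting.

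**Figure D3:**
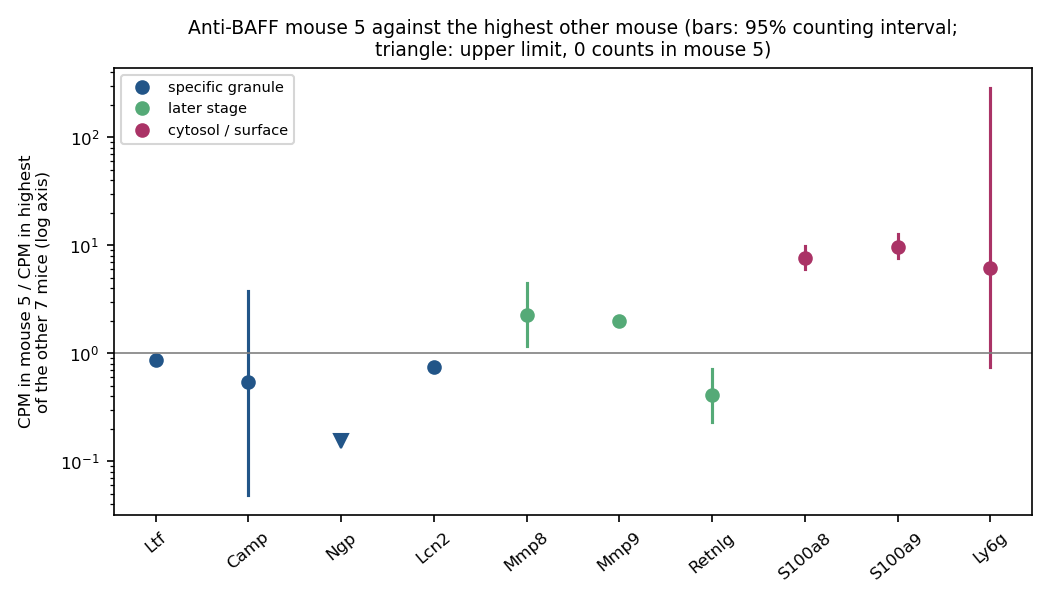
Ratio of the CPM in anti-BAFF mouse 5 to the highest of the other 7 mice for each gene (log axis), coloured by stage, with bars for the 95% counting interval and a triangle for the upper limit where mouse 5 had no count. The specific granule genes lie below a ratio of 1 and S100a8 and S100a9 at 7.64 and 9.74.

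Levels of different genes were compared per kilobase of the deposited gene length. In control mice Lcn2 was highest with 17.2 ± 4.69 CPM per kb (SD, n = 4), followed by Mmp9 with 12.3 ± 4.09, and these neighbours did not differ beyond their spread. Ltf followed with 6.66 ± 9.81, S100a9 with 3.93 ± 2.93, S100a8 with 3.36 ± 2.39 and Retnlg with 2.55 ± 1.82 CPM per kb, again with overlapping spreads. Ngp at 0.469 ± 0.639, Mmp8 at 0.205 ± 0.131, Camp at 0.102 ± 0.155 and Ly6g at 0.033 ± 0.038 CPM per kb were lowest. In mouse 5 the order was S100a9 with 81.0 CPM per kb, S100a8 with 51.2, Mmp9 with 31.5, Ltf with 18.5 and Lcn2 with 15.9. By the means of the control group the S100 pair ranked below Lcn2 and Mmp9, although in control mouse 1 alone S100a9 (8.32 CPM per kb) was above Mmp9 (6.82), and in mouse 5 both S100 genes were above Lcn2 and Mmp9.

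The treatment comparison asks whether BAFF neutralization during the return to NCD changed these transcripts. With all 8 mice, the fitted log2 fold change (anti-BAFF over control) was 2.15 (SE 1.05) for S100a8 and 2.59 (SE 1.09) for S100a9. It was 0.37 (SE 0.43) for Mmp9, 0.01 (SE 1.26) for Ltf, -0.27 (SE 0.20) for Lcn2 and -1.47 (SE 0.73) for Retnlg. These values contain the mouse that chose the genes and are given as a description. On the log2(FPKM + 1) scale, which understates differences of low genes, the limma values were 0.96 for S100a8 and 1.26 for S100a9. Ltf ran from -1.29, without mouse 5, to 1.89, without control mouse 6, and Mmp9 from -0.21, without mouse 5, to 0.59 on leaving out each mouse, and both crossed 0 within that range. None of the 6 was called by edgeR at an adjusted p of 0.05, against 0.0564% of all genes, and 1, S100a9, had an unadjusted p under 0.05, against 1.9% of all genes (1.24% lower and 0.664% higher with anti-BAFF). DESeq2 and limma called none. DESeq2 gave no p for S100a8 and S100a9, because its outlier rule withholds the p of a gene with 1 extreme library. The groups of 4 overlapped in all 10 genes, while 0.952% of all genes were lower and 0.526% higher with anti-BAFF without overlap.

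Mice whose values did not draw attention to the list were compared by refitting the 7 mice without mouse 5 (4 control, 3 anti-BAFF). S100a8 then had a log2 fold change of -0.12 (SE 0.53) and S100a9 of 0.26 (SE 0.56), both within 1 SE of no change, and mean levels were 2.33 and 2.18 CPM for S100a8 in control and anti-BAFF mice. Mmp9 was at -0.21 (SE 0.31), Lcn2 at -0.35 (SE 0.23) and Ltf at -1.29 (SE 1.35), where Ltf turned to 0.61 without control mouse 6. Retnlg had the fold change furthest from 0, -2.26 (SE 0.76), from 1.51 CPM on average in control mice to 0.312 CPM in the 3 anti-BAFF mice. Those 3 mice, 7, 8 and 10, held only 11, 4 and 1 Retnlg counts.

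No gene of the list passed the edgeR quasi-likelihood test in the 7 mice: the adjusted p was 1.00 for all 6 genes tested, and 0.0123% of 16243 genes were called. At an unadjusted edgeR p under 0.05 there was 1 of 6, Retnlg, against 2.59% of all genes (1.85% lower and 0.739% higher). DESeq2 and limma called none of the list either. Retnlg was also the 1 gene of 10 in which the groups did not overlap, with 0.743 to 3.10 CPM in control mice and 0.055 to 0.619 CPM in anti-BAFF mice 7, 8 and 10, and 2.23% of all genes were lower and 1.72% higher in this way. Without control mouse 1, which had the most Retnlg, its log2 fold change was -1.65 (SE 0.64). The fold changes of 5 of the 6 genes were below 0, and the median of the 6 was -0.28 beside -0.01 for all genes tested. Of those 5, S100a8, Mmp9 and Ltf were within 1 SE of no change. S100a8 turned above 0 without control mouse 1, and Ltf without control mouse 6. The count of signs therefore shows no shared fall.

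**Figure D4:**
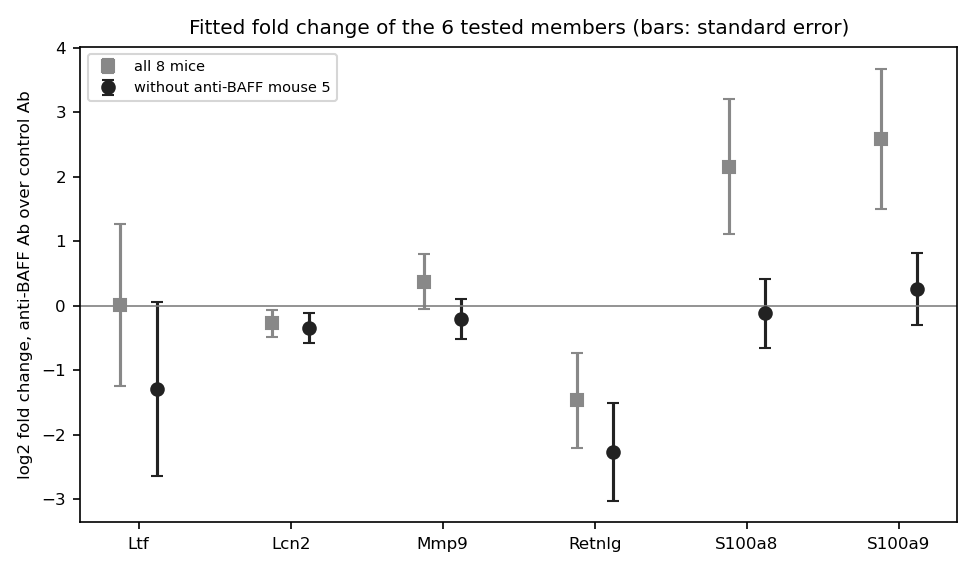
Log2 fold change (anti-BAFF over control) of the 6 genes in the fit, with bars of 1 standard error, for all 8 mice (grey squares) and without mouse 5 (black circles). S100a8 falls from 2.15 to -0.12 and S100a9 from 2.59 to 0.26 when mouse 5 is left out, and Retnlg lies below 0 in both fits.

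The 10 levels summed to 68.7, 126, 162 and 118 CPM in control mice 1, 2, 6 and 9 and to 299, 97.5, 82.0 and 88.7 CPM in mice 5, 7, 8 and 10. The anti-BAFF mean was 142 ± 105 CPM (SD, n = 4) with mouse 5 and 89.4 ± 7.77 CPM (n = 3) without it, against 119 ± 38.6 CPM (n = 4) in control mice. The direction of the group difference therefore depended on 1 mouse. By stage, the specific granule genes summed to 106 CPM in mouse 5, below the 118 CPM of control mouse 6. The later genes summed to 115 CPM in mouse 5 against 28.2 to 57.2 CPM in the other mice, and the cytosolic and surface genes to 78.2 CPM against 2.34 to 9.06 CPM.

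Other neutrophil genes, from lists written for this work, were read in the same way. Each count of genes led by mouse 5, here and below, stands beside the 9.3% of all genes in the fit that it led. Several lists also hold genes with too few counts for the fit, which that share does not cover. The lists were chosen with earlier results of these data known, so the counts are a description and not a test. Of 6 azurophil granule genes, mouse 5 was highest in 1, Prtn3 (proteinase 3), by a ratio of 1.03, and their sum there, 5.12 CPM, was inside the 3.78 to 7.88 CPM of the other 7 mice. Elane, neutrophil elastase, had no count in mouse 5, and Ms4a3, a marker of granulocyte and monocyte progenitors, had none in any mouse. The sum of these genes thus did not stand out in mouse 5. Most of it came from Ctsg and Prtn3, with Ctsg at 2.69 CPM in mouse 5 and 1.48 to 5.80 CPM in the others. Mpo and Prss57 reached at most 0.658 and 0.552 CPM in any mouse, so the sum says little about them. Ctsg was highest in mouse 7 and lowest in mouse 2, and so were the mast cell markers Mcpt4, Cpa3 and Cma1. The part of mast cells in the Ctsg level, and so in this sum, was not tested. Of 7 other specific granule or secretory genes mouse 5 was highest in 3, Cd177, Pglyrp1 and Wfdc21. Of these, Wfdc21 exceeded the next mouse by 5.69-fold (interval 1.61 to 30.7) on 15 counts, while the intervals of Cd177 and Pglyrp1 included 1.

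More of the listed genes of mature neutrophils were highest in mouse 5. It was highest in 9 of 12 receptor and surface genes, against 9.3% of all genes in the fit. Of these 12, 9 were in the fit, and Fpr1, Trem3 and Cxcr1 were not. Mouse 5 drew attention by high neutrophil genes, so the counts of this list and the next repeat that choice. They support nothing further. Cxcr2, the receptor for neutrophil-attracting chemokines, was at 8.68 CPM in mouse 5 and at 0.196 to 0.938 CPM in the others. Csf3r, the receptor for G-CSF, was at 77.9 against 24.4 to 30.4 CPM, and Trem1, an activating receptor of neutrophils and monocytes, at 27.6 against 3.43 to 6.80 CPM. The formyl peptide receptors Fpr1 and Fpr2 were 6.51-fold and 3.34-fold above the next mouse. Cxcr1, Mmp25 and Clec4d were not highest in mouse 5.

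Mouse 5 also led in 6 of 9 other genes listed as high in mature neutrophils, against the same 9.3%. Of these 9, 7 were in the fit, and Stfa2l1 and Il1f9 were not. Acod1, the enzyme that makes itaconate, was at 75.0 CPM against 5.91 to 16.7 CPM in the other mice, Slfn4 at 14.4 against 0.845 to 2.23 CPM and Hcar2, a receptor for hydroxybutyrate, at 29.3 against 2.48 to 4.24 CPM. Il1b, Hdc and Slpi were within the range of the other mice. In those 7 mice Il1b was at 196 to 690 CPM and Hdc at 73.6 to 178 CPM, where S100a8 was at 0.951 to 4.65 CPM. A high level of a gene of this list thus need not go with a high level of S100a8. The part of macrophages and other cells in these genes was not tested. Without mouse 5, no gene of these 4 lists differed between the antibody groups at an adjusted p of 0.05 by edgeR. Slfn4 and G0s2, with log2 fold changes of -0.79 (SE 0.30) and -0.52 (SE 0.16), had an unadjusted edgeR p under 0.05. Over all genes tested in the 7 mice, 1.85% were lower at that threshold.

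**Figure D5:**
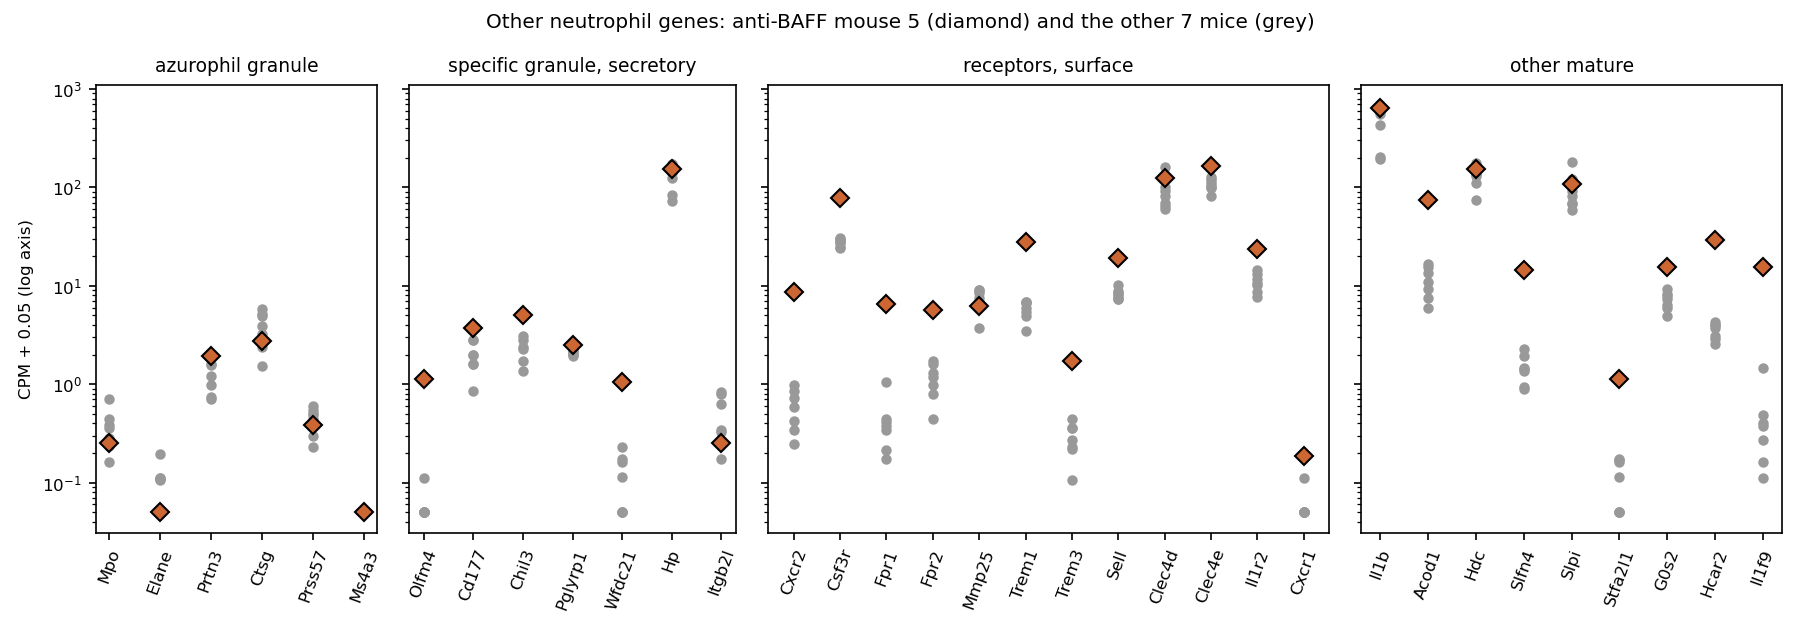
CPM + 0.05 (log axis) of 4 lists of other neutrophil genes in anti-BAFF mouse 5 (orange diamonds) and the other 7 mice (grey points). Of the azurophil granule genes only Prtn3 in mouse 5 lies above all the other mice, by a ratio of 1.03. Cxcr2, Csf3r, Fpr1, Trem1, Acod1, Slfn4 and Hcar2 in mouse 5 lie further above all of them.

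The chemokines that attract neutrophils and the growth factor Csf3 (G-CSF) summed to 1450 CPM in mouse 5, within the 1009 to 2035 CPM of the other mice. Of Cxcl1, Cxcl2, Cxcl3, Cxcl5, Ppbp and Csf3, mouse 5 was highest in 3: Cxcl5 with 24.6 against 3.29 to 17.1 CPM, Cxcl3 with 21.5 against 6.80 to 15.4 CPM and Ppbp with 3.50 against 0.512 to 0.957 CPM. Cxcl1 was at 745 CPM in mouse 5, within the 466 to 1223 CPM of the other mice. Without mouse 5, none of the 6 was called by edgeR. Cxcl5 (log2 fold change 1.14, SE 0.36) and Cxcl3 (0.60, SE 0.24) had an unadjusted edgeR p under 0.05, against 0.739% of all genes higher at that threshold.

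Markers of other cell types are given beside these values, and their part in the levels of mouse 5 was not tested. The sum of 7 B cell markers was 389 CPM in mouse 5, within the 180 to 432 CPM of the anti-BAFF group and below the 1131 to 1850 CPM of the control group. The sum of 8 macrophage markers was 5197 CPM in mouse 5 and 4164 to 5549 CPM in the others, and that of 6 monocyte markers 867 against 570 to 877 CPM. Mouse 5 was nevertheless highest in 2 of the 8 macrophage markers, Csf1r with a ratio of 1.00 to the next mouse and Fcgr1, a high-affinity IgG receptor, with 1.56 (interval 1.38 to 1.76). It was highest in 2 of the 6 monocyte markers, Ccr2 with 1.204 (interval 1.12 to 1.30) and Vcan with 1.05 (interval 0.997 to 1.10). The sum of 6 red cell markers was 126 CPM in mouse 5, the lowest of the 8 mice, against 129 to 538 CPM. That of 5 platelet markers was 189 CPM, the highest, against 121 to 167 CPM, and Pf4 alone gave 173 CPM of it. Mouse 5 was highest in Pf4 and in Ppbp, which is also among the chemokines above. It was not highest in Gp9 or Itga2b, and Gp1bb had no count there. Of 8 eosinophil, basophil and mast cell markers mouse 5 was highest in 0, and Epx, eosinophil peroxidase, was at 0 in every mouse. In the resistin family, where Retnlg belongs, mouse 5 was highest in 0 of the 3 other genes, and of 7 other matrix metalloproteases it was highest in 0. It led in 0 of 5 transcription factors of granulopoiesis (Cebpe, Gfi1, Cebpa, Cebpb and Spi1). It led in 3 of 6 T and NK cell markers, Cd4, Ncr1 and Nkg7, each with a counting interval that included 1. Among 5 fibroblast and adipocyte progenitor markers it led in 1, Col1a1, by a ratio of 1.11. It led in 0 of 5 adipocyte, 0 of 5 mesothelial and 0 of 4 endothelial markers.

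The genes most like the list over the 8 mice were found by Pearson correlation of log2 CPM with the mean of the 6 genes in the fit. The highest were Ccdc28b (0.98), Chl1 (0.98), Siglece (0.96), Gm37691 (0.96), Slfn4 (0.95), Hcar2 (0.95), Xpa (0.94), Kif26b (0.93), Nynrin (0.93) and D030056L22Rik (0.93). The 8 points share the single high value of mouse 5, which sets these correlations, so they carry no test. Ccdc28b, at 9.29 CPM in mouse 5 and 5.63 to 6.97 CPM in the others, shows how small a rise can give a high correlation. By the gap between mouse 5 and the next mouse, the leading genes outside the list were Arg1, Cxcr2, Hcar2, Chl1, Slfn4, Slc7a15, Gm37691, Acod1, Trem1 and Defb2. Arg1 encodes arginase 1 and was at 120.9 CPM in mouse 5 against 2.60 to 8.81 CPM, a 13.7-fold gap (interval 11.6 to 16.3).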

How the data were processed

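The authors sequenced RNA of the SVF and deposited raw counts of reads per gene, without normalization, in 1 table with a column for each of 8 mice. The submitters' processing notes name build mm10. The aligner and the counting tool are not given in the sources used here. The deposited gene length, an other value in bases, was used for CPM per kb and for FPKM. The labels name separate mice. No 2 libraries of a group agreed within sampling noise (chi-square at the lowest 7.32 per degree of freedom).

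The genes and the gene lists were chosen with earlier results of these data known. The test was that of edgeR 4.0.16 under R 4.3.3 (minimum count of 10 in filterByExpr, TMM, quasi-likelihood test, treatment as the only term, Benjamini-Hochberg adjustment over all genes tested, call threshold 0.05), with all 8 mice and again without mouse 5. It was tried on simulated data with 200 changed genes. Alternatives were DESeq2 1.42.0, limma 3.58.1 on log2(FPKM + 1), RLE, upper quartile and library size scaling, the robust option, no filter and leaving out each mouse. Intervals for ratios of 2 counts are exact conditional binomial 95% intervals (Clopper-Pearson) from scipy 1.17.1 in Python 3.11.15, and figures were drawn with matplotlib 3.10.9.

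Named genes were the 10 genes, those of the lists, the 10 tested genes most correlated with the mean of the list (log2 CPM, prior count 2) and the 10 with the largest gap between mouse 5 and the next mouse. The lists held 137 genes, and each list is given by its summed level or by the number of its genes that mouse 5 led. Promoters came from RefSeq, build GRCm38.p6, whose transcription start can differ from the gene start of the deposited table. Measurements other than RNA were not analysed here.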

Additional observations from a re-analysis of the deposited data

Results flagged for a closer look

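Each group of 4 mice was searched for a highest or lowest value set far apart from the rest, by Dixon's ratio at the 95% level. Of 26 groups examined 8 were marked. A rate of about 1.3 by chance would hold for independent groups of normally spread values. These genes were chosen with their values known, and the sums repeat single genes, so the 2 numbers together are no test. In 5 of them the mouse is anti-BAFF mouse 5, which repeats what drew attention to the list: S100a8 at 35.5 CPM (nearest 2.87), S100a9 at 42.3 CPM (nearest 3.78), Mmp8 at 2.09 CPM (nearest 0.507), Ly6g at 0.404 CPM on 6 counts (nearest 0.065) and the sum of the cytosolic and surface genes at 78.2 CPM (nearest 6.72). The other 3 lay in the control group. Ltf in control mouse 6 was at 73.3 CPM with the nearest mouse at 12.1 CPM, Ngp in control mouse 1 at 1.74 CPM with the nearest at 0.296 CPM, and S100a9 in control mouse 1 at 4.34 CPM with the nearest at 1.39 CPM.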

How the results depend on the processing

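No gene of the list was called under any setting run. With 8 mice, edgeR called 9 genes in all, DESeq2 67 (64 lower), no filter on low counts 19, the robust option 2, and leaving out each mouse 2 to 9. Without mouse 5 these were 2 by edgeR, 64 by DESeq2 (62 lower), 4 by limma on log2(FPKM + 1), 22 with no filter and 0 to 5 on leaving out each mouse. The difference of the summed level was 23.1 CPM and ran from -29.3 CPM, without mouse 5, to 43.1 CPM on leaving out each mouse. With 8 mice, limma gave log2 fold changes of 0.96 for S100a8 and 1.26 for S100a9, against 2.15 and 2.59 by edgeR, and Ltf ran from -1.29 to 1.89 on leaving out each mouse. In the 7 mice, the log2 fold change of Ltf ran from -3.36 to 0.61 on leaving out each mouse, above 0 without control mouse 6. That of S100a8 ran from -0.36 to 0.45, above 0 without control mouse 1 (0.45) or anti-BAFF mouse 7 (0.11), and was 0.022 with limma. That of S100a9 ran from -0.15, without anti-BAFF mouse 8, to 0.93. The cause of these turns was not tested. Retnlg stayed below 0, from -3.27 to -1.65. No paired analysis was possible because the antibody groups share no mouse number. Levels under 3 counts, as for Camp, Ly6g, several Ngp values and Retnlg in anti-BAFF mouse 10, limit what can be read between mice.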
